A study of Homo sapiens with 9 samples.

Results

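S9CC13 and S9CC47 are a pair of clones of one edited cell line, and they were compared here in the differentiation batch that carried both, called R6. The comparison used the 3 S9CC13_R6 libraries and the 3 S9CC47_R6 libraries, 6 of the 9 samples of the series, matched by time (0h, 3h and 24h). The cells were cranial neural crest cells (CNCCs) grown from H9, an established line of human embryonic stem cells. In every sample SOX9 carried an FKBP12-F36V, mNeonGreen and V5 tag at its carboxy terminus on both alleles, and no sample lacked the tag. Cells received dTAGV-1 at 500 nM for 3 h or 24 h, or no dTAGV-1 (0h), and took up 4-thiouridine (4sU) at 100 uM for the last 2 h. In the 3h samples labelling began 1 h after dTAGV-1, and in the 24h samples it began 22 h after it. Each line was 1 clone and was represented in R6 by 1 culture, so a difference between clones and a difference between cultures cannot be told apart within R6. The 3 libraries of S9CC47 from another batch, S9CC47_R5, had the same genotype and treatments. They are given beside many of the results but not beside every gene.

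Neural crest cells leave the border of the neural plate and, in the head, form most of the cartilage, bone and connective tissue of the face. SOX9 is a transcription factor that they use early and that later drives the cartilage programme, with type II and type XI collagen among its known targets. A degron tag lets a small molecule bring the tagged protein to a ubiquitin ligase, and clones of one edited line can still differ in genome, chromatin and state of differentiation. SLAM-seq reads bases made during 4sU labelling as T>C changes, so a count of T>C reads follows newly made RNA and a count of total reads follows RNA level.

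The 6 libraries held between 17808007 and 28782678 total reads over genes (median 21607102), of which 3130673 to 5475800 carried T>C changes. The labelled cell type was checked against its markers. TFAP2A, TWIST1 and PRRX1, factors of neural crest and its mesenchyme, were read in every library, with 4828 to 10522 normalized total reads for TFAP2A. Not all such factors were read well enough to test: 14 of 18 early crest factors and 21 of 34 facial mesenchyme factors were. SOX10, a marker of early and glial crest, had at most 3.3 normalized reads in any library. The 10 epithelial genes examined summed to 34.9 to 83.0 normalized reads in the 3 S9CC13 libraries and to 39.5 to 74.0 in the 3 S9CC47_R6 libraries. Read totals of the HOX genes, which the most anterior cranial crest lacks, stayed at 10.7 or below. Those of the 13 pluripotency genes were far higher, at 25077.7 to 28117 in S9CC13 and 24756.4 to 27004.1 in S9CC47_R6. Those of the 20 neural genes were 13337.1 to 15635.5 in S9CC13 and 10563.5 to 13642.4 in S9CC47_R6. In bulk samples fewer cells of a type and less RNA per cell cannot be told apart. A normalized read is a count scaled to the mean size of the 9 libraries after TMM normalization.

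The genes that stood farthest apart were CAT, CTSF, HIST1H3C, ACOT2 and IRAK1. They were taken by a rule on level: the lowest S9CC13 library had at least 20 normalized reads and lay 2-fold or more above the highest of all 6 S9CC47 libraries. For total reads 5 genes met it and for T>C reads 4 did, all higher in S9CC13. No gene met the mirror rule for lower values. That the clones do not overlap in these genes was set by the rule. Their p-values below come from the values that the rule used and are not independent support. ACOT2 and IRAK1 also came under the rule for named genes, while CAT, CTSF and HIST1H3C were chosen after their values were seen.

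The 250 bases before the start of CAT, HIST1H3C and IRAK1 are shown because these genes were near silent or far lower in one clone with a start of their own, and because their CG content differed widely. They are RefSeq sequences on GRCh38.p14, not sequence read from either clone, written 5′ to 3′ on the strand of the gene with each CG in capitals. They lie at chr11:34438684-34438933 (+), chr6:26045134-26045383 (+) and chrX:154019903-154020152 (-).
CAT: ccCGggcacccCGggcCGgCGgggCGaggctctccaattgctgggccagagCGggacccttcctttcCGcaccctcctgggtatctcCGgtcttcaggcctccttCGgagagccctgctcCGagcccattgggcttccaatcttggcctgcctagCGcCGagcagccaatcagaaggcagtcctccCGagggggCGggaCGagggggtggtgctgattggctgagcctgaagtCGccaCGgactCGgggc
HIST1H3C: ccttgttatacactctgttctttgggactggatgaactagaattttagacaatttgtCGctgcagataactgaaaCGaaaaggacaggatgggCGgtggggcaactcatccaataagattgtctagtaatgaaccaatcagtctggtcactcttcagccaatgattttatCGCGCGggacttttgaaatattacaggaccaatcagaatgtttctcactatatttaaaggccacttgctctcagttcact
IRAK1: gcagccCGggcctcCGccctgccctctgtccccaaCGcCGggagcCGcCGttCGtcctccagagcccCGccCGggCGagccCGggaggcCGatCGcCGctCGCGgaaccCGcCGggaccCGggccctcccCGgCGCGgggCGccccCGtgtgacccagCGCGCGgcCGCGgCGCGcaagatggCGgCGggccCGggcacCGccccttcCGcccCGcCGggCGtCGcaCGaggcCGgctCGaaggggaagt
The CAT promoter held 18 CG, the HIST1H3C promoter 6 and the IRAK1 promoter 43, against a median of 11 over 35116 promoters of the same length. A count as high as that of IRAK1 was found in 1.02% of promoters, one as high as that of CAT in 36.8% and one as high as that of HIST1H3C in 61.9%. Over all 5 genes apart, CCAAT on either strand was found in the promoters of 2, CAT and HIST1H3C, as it was in 32.0% of all promoters, and TATAAA in none, as in 10.7% of all. For ACOT2 and CTSF the RefSeq start lay inside the GENCODE gene, and their windows are not shown.

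CAT encodes catalase, the peroxisomal enzyme that breaks down hydrogen peroxide (GRCh38, chromosome 11, 34438934 to 34472060). It had 60, 56 and 95 total reads at 0h, 3h and 24h in S9CC13 and 0 reads in each of the 6 S9CC47 libraries. Taking 3 reads per library as the floor, CAT was at least 25.7-fold higher in S9CC13 than in S9CC47_R6 and at least 22.0-fold higher than in S9CC47_R5. T>C reads are part of the total reads, so they could only be 0 in every S9CC47 library. In S9CC13 there were 27, 24 and 46 T>C reads (at least 12.9-fold against R6). Of its total reads in S9CC13, 45.0%, 42.9% and 48.4% carried T>C changes. The difference was called for both kinds of read (adjusted p = 0.00971 for total and 0.000678 for T>C reads, edgeR's quasi-likelihood test with Benjamini-Hochberg adjustment). CAT reached the level needed for testing (1 CPM in 3 or more samples) only through S9CC13, so these p-values add no support. Both calls were lost in the 9-sample fit with a surrogate variable.

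CTSF encodes cathepsin F, a lysosomal cysteine protease (chromosome 11, 66563464 to 66568879). Its total reads were 52, 90 and 106 in S9CC13 and 0 in the 6 S9CC47 libraries, which put it at least 30.5-fold higher than in S9CC47_R6. Its T>C reads numbered 12, 6 and 10 in S9CC13, and could only be 0 in S9CC47, where total reads were 0. CAT and CTSF thus lay on the same chromosome but on different arms. The 4 tested genes that flanked each, in equal number on both sides, did not follow. Their log2 differences ran from -0.29 to -0.0073 around CAT and from -0.33 to 0.32 around CTSF, with none called. These genes started up to 476.9 kb away for CAT and up to 53.2 kb away for CTSF.

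HIST1H3C (now H3C3), one of the replication-dependent histone H3 genes on chromosome 6, had 61, 69 and 52 total reads in S9CC13 against 2, 0 and 0 in S9CC47_R6 and 0, 12 and 5 in S9CC47_R5. The ratio of S9CC13 to S9CC47_R6 was 104, with a 95% counting interval from 28.4 to 866, and that to S9CC47_R5 was 10.5 (6.37 to 18.4). The other H3 genes of the cluster encode the same or nearly the same protein and share much sequence. HIST1H3F, the next highest, had 65, 60 and 63 reads in S9CC13 and 103, 58 and 38 in S9CC47_R6, so it showed no such split. How reads of near-identical copies were shared out among these genes is uncertain. The 4 tested genes that flanked HIST1H3C, in equal number on both sides, were all histone genes. They were higher in S9CC13 by 0.32 to 0.67 on the log2 scale, with none called.

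ACOT2 encodes a mitochondrial acyl-CoA thioesterase, which releases fatty acids from coenzyme A (chromosome 14, 73567620 to 73575658). It had 111, 113 and 150 normalized total reads in S9CC13 against 8.6, 14.2 and 9.9 in S9CC47_R6 and 32.3, 4.2 and 14.6 in S9CC47_R5. The log2 difference between the clones in R6 was 3.54 ± 0.31 (SE, 3 pairs, adjusted p = 0.00363). In R6 ACOT2 reached the level needed for testing in total reads only through S9CC13, so this p-value adds no support. ACOT1, a near-identical neighbour, had 0 to 4 reads in any library, and reads of the pair may be split between them. The 4 tested genes that flanked ACOT2, in equal number on both sides, differed by -1.38 to 0.21 on the log2 scale, with none called.

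IRAK1, a kinase of Toll-like and interleukin-1 receptor signalling (chromosome X, 154010506 to 154019902), was the best measured of the 5. It had 709, 683 and 619 normalized total reads in S9CC13, 60.0, 102 and 51.8 in S9CC47_R6, and 106, 100 and 101 in S9CC47_R5. The log2 difference in R6 was 3.29 ± 0.19 (SE, adjusted p = 0.000331). Among T>C reads it was 2.96 ± 0.41 (adjusted p = 0.00118). The 4 tested genes that flanked it, in equal number on both sides, differed by -0.15 to 0.20 on the log2 scale and none was called. IRAK1 was called under all 14 alternative settings for total reads and all 15 for T>C reads.

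**Figure D1:**
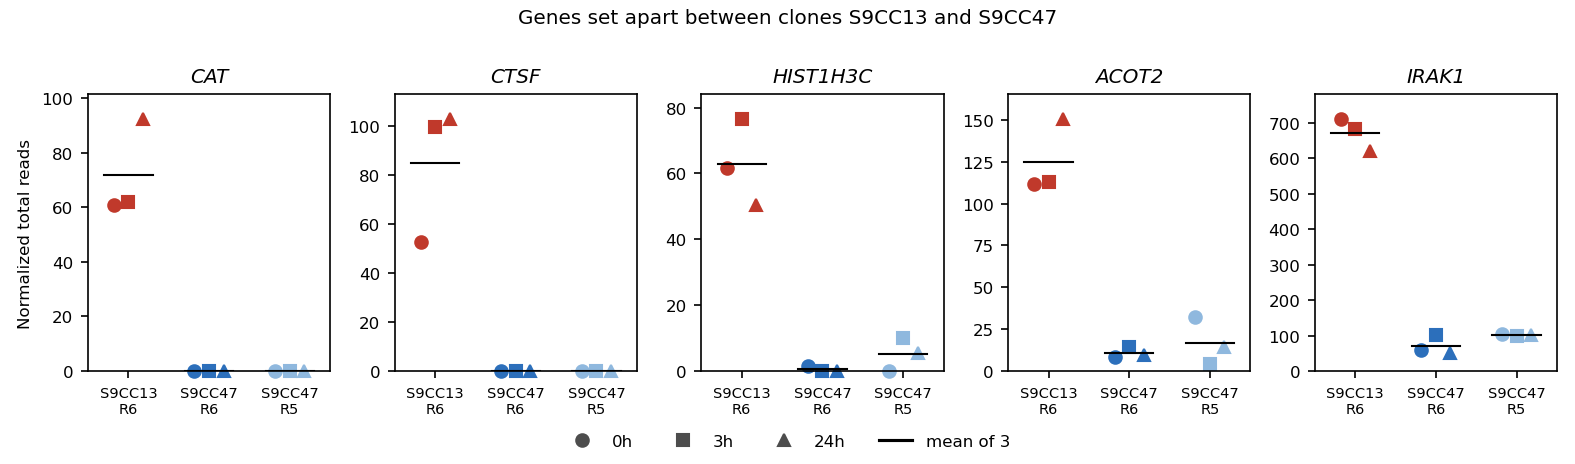
Normalized total reads of the 5 genes that stood farthest apart, by culture, with 1 point per library, the marker shape giving the time and a line at the mean of 3. IRAK1 sits between 619 and 709 reads in S9CC13 and at 106 or below in the 6 S9CC47 libraries, and CAT and CTSF are at 0 in all 6.

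Over all genes, 138 of 11552 tested differed in total reads between the clones in R6 at an adjusted p under 0.1 (1.19%), in a fit with time and clone as terms. Of these 93 were higher in S9CC13 (0.805% of those tested) and 45 lower (0.39%). In T>C reads 208 of 11741 genes differed (1.77%), 132 of them higher and 76 lower. The median fold among called genes was 1.81 for those higher and 1.76 for those lower in total reads. In both measures 79 genes were called, 57.2% of the total-read calls and 38.0% of the T>C calls, all with the same sign. T>C reads are part of the total reads, so this overlap is partly built in. Unconverted reads (total minus T>C) share no reads with them but come from the same libraries. There 74 genes were called in both, and 202 of 205 T>C calls with a value had the same sign. All 138 total-read calls, and 130 of 132 higher and 73 of 76 lower T>C calls, had one direction at the 3 times, which the test itself selects for. The p-values rest on 3 pairs of libraries from 1 culture per clone with 2 residual degrees of freedom, and they measure only the spread of the clone difference between times. The number called was sensitive to which pair was used: 1730 without the 0h pair, 84 without the 24h pair and 305 without the 3h pair for total reads, and 1084, 76 and 155 for T>C reads. Without time as a block, 10 genes were called for total and 12 for T>C reads.

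The called genes were not equally far apart at the 3 times. Among the 93 higher genes the median log2 difference was 0.52 in the 0h pair, 1.01 in the 3h pair and 1.05 in the 24h pair, and among the 45 lower genes it was -0.52, -1.09 and -0.80. The same genes were read in the other culture of S9CC47. For the 93 higher genes the median of S9CC47_R5 minus S9CC47_R6 was 0.07, 0.48 and 0.74 at the 3 times, and for the 45 lower genes 0.23, -0.55 and -0.76. Both differences subtract the same S9CC47_R6 libraries, on which the genes were chosen, so nothing is read from their signs. The 3 S9CC13 libraries lay above all 6 S9CC47 libraries for 41 of the 93 higher genes and below all 6 for 11 of the 45 lower genes. Over all tested genes, S9CC13 lay beyond all 6 on one side or the other for 454 of 11552 (3.93%). In T>C reads it was 39 of 132 and 17 of 76, and 369 of 11741 over all genes (3.14%). The called genes were chosen for lying apart from S9CC47_R6, which gave 3 of these 6 libraries. Much of their separation was thus selected for, and their shares are not support for a clone difference.

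Of the 10 genes named for the largest higher values, NUDT8, MICOS13 and LIPE were apart from every S9CC47 library. NUDT8, a mitochondrial Nudix hydrolase, had 107, 106 and 120 normalized total reads in S9CC13 against 21.0, 15.4 and 9.9 in S9CC47_R6, with 27.1, 55.2 and 51.6 in S9CC47_R5 (log2 difference in R6 2.86 ± 0.32, adjusted p = 0.00971). NUDT8 reached the level needed for testing in R6 only through S9CC13, so its p-value adds no support. MICOS13, a subunit of the complex that shapes mitochondrial cristae, had 265, 351 and 325 reads against 111, 93.6 and 65.0, and 111 to 165 in S9CC47_R5 (1.82 ± 0.21, adjusted p = 0.0134). LIPE, hormone-sensitive lipase, had 93.2, 123 and 91.1 reads against 38.2, 46.2 and 22.2 (1.56 ± 0.26, adjusted p = 0.0457). LIPE had 30.3 to 47.7 reads in S9CC47_R5.

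For other genes of this rank S9CC47_R5 lay nearer to S9CC13. SGTA, a cochaperone of tail-anchored proteins, had 2035, 2153 and 1441 reads in S9CC13, 790, 639 and 402 in S9CC47_R6, and 1087, 1507 and 1547 in S9CC47_R5 (1.65 ± 0.11, adjusted p = 0.000823). C12orf57, a small protein gene linked to brain and eye development, had 4575, 4720 and 5270 reads against 2222, 1808 and 1269, while S9CC47_R5 had 3417, 5089 and 4772 (1.49 ± 0.16, adjusted p = 0.00971). CRIP2, a LIM-domain protein of muscle and vessel, differed by 1.56 ± 0.22, the zinc-finger gene ZNF628 by 2.23 ± 0.31 and BRICD5 by 1.54 ± 0.29. The difference of S9CC47_R5 from S9CC47_R6 in these 3 genes was 1.30, 1.65 and 1.25 on the same scale, so that the libraries of S9CC13 and S9CC47_R5 lay on the same side of S9CC47_R6.

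In T>C reads the largest difference among called genes averaging 50 or more normalized reads was that of RPL28, a protein of the large ribosomal subunit. It had 3689, 4690 and 5085 normalized T>C reads in S9CC13, 706, 624 and 367 in S9CC47_R6, and 2250, 5186 and 2906 in S9CC47_R5 (3.02 ± 0.18, adjusted p = 1.3e-08). The share of its reads with T>C changes was 23.4%, 20.0% and 32.2% in S9CC13 and 5.98%, 6.77% and 5.05% in S9CC47_R6, but 21.1%, 28.0% and 21.9% in S9CC47_R5. GPX4, the glutathione peroxidase that reduces lipid peroxides, had 131, 456 and 212 T>C reads against 60.5, 53 and 37.6, with 63.3 to 102 in S9CC47_R5 (2.23 ± 0.27, adjusted p = 0.000235), and S9CC13 lay above all 6. SGTA (2.35 ± 0.23), GAK, a kinase of clathrin uncoating (1.68 ± 0.19), and REX1BD (1.67 ± 0.26) followed.

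Among called genes averaging 50 or more normalized total reads, ANKRD1 had the lowest value. ANKRD1, a muscle ankyrin-repeat protein and a known target of YAP, had 86.1, 39.9 and 33.0 normalized total reads in S9CC13 against 171, 226 and 276 in S9CC47_R6 (-2.12 ± 0.35, adjusted p = 0.0454). In S9CC47_R5 it had 55.5, 35.9 and 38.2, a range like that of S9CC13. VANGL2, a core planar-polarity protein, had 64.8, 58.7 and 132 reads against 101, 178 and 498 (-1.43 ± 0.25, adjusted p = 0.0553), and NDUFB3, a subunit of respiratory complex I, had 225, 127 and 230 against 281, 492 and 1036 (-1.49 ± 0.31, adjusted p = 0.0839). NDUFB3 was below all 6 S9CC47 libraries in S9CC13. The gap in both was smallest at 0h.

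Also lower in total reads were TSC22D4 (-1.66 ± 0.34), the G-protein subunit GNB2 (-1.58 ± 0.29) and SNTG1 (-1.41 ± 0.28). The ERK phosphatase DUSP7 (-1.29 ± 0.26) and HDHD5 (-1.27 ± 0.26) completed the lower genes together with TAGLN and SIX2, described below. None of the genes named as lower in total reads, COL3A1 and ACTG2 below among them, was called in the 9-sample fit with clone but no culture term. Among genes averaging 50 or more T>C reads, ANKRD1 had the lowest called value (-2.31 ± 0.35, adjusted p = 0.00212), with 37.7, 21.4 and 10.5 T>C reads against 88.0, 122 and 128. PKDCC, a secreted kinase of skeletal growth, had 83.8, 54.9 and 226 T>C reads against 136, 300 and 533 (-1.40 ± 0.22, adjusted p = 0.00314). NCSTN, a subunit of gamma-secretase (-1.67 ± 0.38), THOC3, of the complex that couples transcription to export (-1.64 ± 0.36), and the ephrin receptor EPHA2 (-1.41 ± 0.36) were lower too.

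Counts of called genes in the lists below are read against 0.805% higher and 0.39% lower over all genes in total reads. Those in T>C reads are read against 1.77% called in either direction. Among 14 tested early crest factors 1 was higher in total reads, ZIC1, a zinc-finger factor of the neural plate border, and the median log2 difference of the list was -0.035 against -0.0064 over all genes. ZIC1 had 178, 207 and 247 normalized reads in S9CC13, 118, 117 and 104 in S9CC47_R6, and 65.8, 61.0 and 85.3 in S9CC47_R5 (0.89 ± 0.18, adjusted p = 0.0839). It was above all 6 S9CC47 libraries and, among the T>C reads, differed by 0.98 ± 0.22 (adjusted p = 0.0336). SNAI1, a factor of crest emigration, was lower in T>C reads (-0.998 ± 0.24, adjusted p = 0.0545), with 86.9, 69.7 and 159 in S9CC13 against 81.1, 196 and 440 in S9CC47_R6, so the clones overlapped at 0h. Of 21 facial mesenchyme factors 1 was lower in total reads, SIX2, a homeobox factor of the frontonasal and kidney mesenchyme, with 47.6, 35.4 and 94.0 reads against 92.0, 122 and 205 (-1.26 ± 0.23, adjusted p = 0.0665).

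Of 11 tested cartilage genes 0 were called, against 1.19% of all genes, and their median was 0.10. SOX9 itself had 15918, 30823 and 39436 normalized total reads in S9CC13 and 17557, 31054 and 37730 in S9CC47_R6 (-0.03 ± 0.08, adjusted p = 0.908). COL2A1, type II collagen, differed by 0.00 ± 0.09, COL11A1 by 0.16 ± 0.09 and SOX5, a partner of SOX9 in cartilage, by 0.12 ± 0.13. Among 19 mesenchymal matrix genes 1 was lower, COL3A1, type III collagen (650, 505 and 805 against 843, 903 and 1393 reads, -0.67 ± 0.12, adjusted p = 0.0624), and the list's median was 0.013.

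Of 9 tested smooth muscle genes 2 were lower in S9CC13 and none higher (median -0.11), against 0.39% lower over all genes. TAGLN, the actin-binding protein transgelin, had 435, 219 and 280 normalized reads in S9CC13 against 664, 735 and 1052 in S9CC47_R6 (-1.41 ± 0.23, adjusted p = 0.0417), and 378, 262 and 227 in S9CC47_R5. ACTG2, enteric smooth muscle actin, had 15.2, 23.3 and 9.7 against 53, 62.8 and 38.6 (-1.71 ± 0.33, adjusted p = 0.072), with 1.7 to 6.5 in S9CC47_R5. The culture that stood apart in both was thus S9CC47_R6, the highest of the 3. The list's summed level ran from 13253 to 18323 in S9CC13 and from 16012 to 19781 in S9CC47_R6, and neither gene was called in T>C reads. These are markers of another cell type than crest. ACTA2 had 440, 378 and 382 reads in S9CC13 against 505, 435 and 457 (-0.22, not called), MYH11 at most 4.7 in any library and DES at most 1.1. The part of such cells in the differences of other genes was not tested.

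WNT readout genes gave 2 higher of 9 tested and none lower, against 0.805% and 0.39% of all genes. The median was 0.19, and 3 of the 9 had values below 0, down to -0.78. AXIN2, a negative regulator of WNT signalling and a common readout of it, had 597, 826 and 520 normalized reads in S9CC13, 423, 499 and 335 in S9CC47_R6, and 354, 397 and 349 in S9CC47_R5 (0.62 ± 0.11, adjusted p = 0.0645). The 3 S9CC13 libraries were the highest of the 9. NKD1, another feedback inhibitor, had 2378, 3556 and 2475 against 1661, 2386 and 1770 (0.53 ± 0.08, adjusted p = 0.0417), but 2230, 3850 and 2447 in S9CC47_R5. Both were also called in T>C reads (0.59 ± 0.14 and 0.71 ± 0.11). FZD2, a WNT receptor that was not in the list and was chosen after its values were seen, had 803, 785 and 1251 reads against 483, 447 and 536 (0.93 ± 0.12, adjusted p = 0.0191), and it too was above all 6. AXIN2 was called in 10 of 14 alternative settings for total reads and in 8 of 15 for T>C reads, and it lost the call without the 24h pair in both.

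Of 15 tested TGF-beta and BMP readout genes 2 were higher in total reads. ID2, an inhibitor of helix-loop-helix factors and a BMP target, had 1217, 1535 and 2391 reads against 859, 896 and 1654 (0.60 ± 0.10, adjusted p = 0.0417), and 1650, 2311 and 2751 in S9CC47_R5. ATOH8 differed by 0.59 ± 0.11 (adjusted p = 0.0671), with 0.55 for S9CC47_R5 minus S9CC47_R6. CCN2, a matricellular TGF-beta and YAP target, was lower among 17 tested in T>C reads (33.5, 29.5 and 23 against 62.0, 76.5 and 76.6, -1.32 ± 0.30, adjusted p = 0.0391).

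Several of these calls rested on the 24h pair. Without it ZIC1, SIX2, COL3A1, ACTG2, AXIN2, NKD1, ATOH8, STRA6, HSPA1A, LIPE, BRICD5, TSC22D4 and VANGL2 were no longer called in total reads, and ZIC1, SNAI1, AXIN2, CCN2, THOC3, EPHA2, UBE2M, ELOC, ADM and HSPD1 were no longer called in T>C reads. AXIN2, EPHA2 and HSPD1 also lost the T>C call without the 3h pair.

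**Figure D2:**
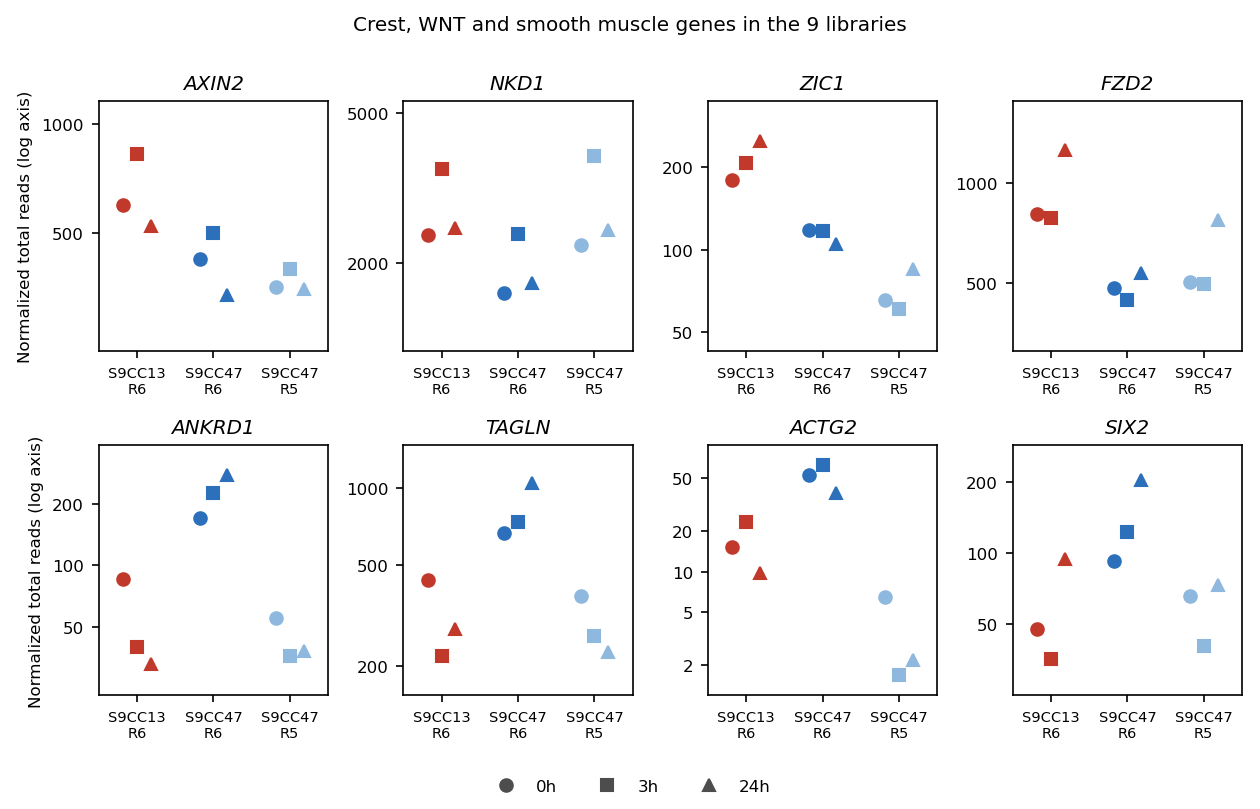
Normalized total reads (log axes) of AXIN2, NKD1, ZIC1, FZD2, ANKRD1, TAGLN, ACTG2 and SIX2, with 1 point per library, grouped by culture, the marker shape giving the time. AXIN2, ZIC1 and FZD2 are highest in the 3 S9CC13 libraries, whereas ANKRD1, TAGLN and ACTG2 are highest in the 3 S9CC47_R6 libraries.

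Other lists held at most 1 called gene in total reads. STRA6, the membrane receptor for retinol transport, was higher (0.61 ± 0.11, adjusted p = 0.0671) among 8 retinoic acid genes, and HSPA1A, an inducible HSP70, was higher (0.82 ± 0.17, adjusted p = 0.0787) among 11 heat shock genes. None was called among 18 G2/M genes (median -0.036), 17 G1/S genes (0.070), 21 p53 targets (-0.00016), 16 ATF4 and ER stress genes (0.028), 22 sterol synthesis genes (-0.038), 17 hypoxia and glycolysis genes (-0.026), 14 FGF and ERK feedback genes (-0.15) or 11 immediate-early genes (-0.25). None was called among 7 pluripotency genes (0.020), 5 neural genes (0.062), 4 pericyte genes (-0.14), 20 imprinted genes (-0.038), 13 clustered protocadherins (-0.11), 15 matrix proteases and inhibitors (-0.12), 16 genes of 20q11.21 (0.023) or 5 interferon-stimulated genes (0.14). Among 5 glial and melanocyte genes the median was 0.13, and the single epithelial and the single endothelial gene tested were not called. No HOX, germline or mitochondrial-coded gene could be tested.

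For the lists with no called gene, the most read members are given by their log2 difference in total reads. TOP2A, the topoisomerase of dividing cells, differed by 0.15 (adjusted p = 0.441) and CENPF, a kinetochore protein, by 0.04, while MCM7 and RRM1, of DNA replication and nucleotide synthesis, differed by 0.13 and -0.14. HMGCS1, an enzyme of sterol synthesis, differed by -0.14, and the glycolytic enzymes ENO1 and ALDOA by 0.05 and 0.06. HSPA5, the chaperone of the endoplasmic reticulum, and ATF4 differed by 0.03 and 0.15, the p53 targets AEN and MDM2 by -0.03 and -0.05, and the ERK phosphatase DUSP6 and the RAS inhibitor SPRED1 by -0.29 and -0.18. L1TD1 and LIN28A, RNA-binding proteins of stem cells, differed by 0.0087 and 0.09, NES, an intermediate filament of progenitors, by 0.31, and the imprinted genes GNAS and PEG10 by -0.31 and 0.19. None of these passed the threshold.

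Besides SNAI1 and CCN2, given above, T>C reads added called genes in 4 lists. Over all genes 1.77% were called in T>C reads, in either direction. MVD, mevalonate decarboxylase of sterol synthesis, was higher (1.35 ± 0.24, adjusted p = 0.00825) among 22 tested, and HSPD1, the mitochondrial chaperonin, was higher (0.33 ± 0.09, adjusted p = 0.0971) among 11. ADM, adrenomedullin, was lower (-1.19 ± 0.32, adjusted p = 0.095) among 19 hypoxia and glycolysis genes. Among 8 tested genes of the machinery that dTAGV-1 uses, UBE2M, an enzyme of cullin neddylation, was higher (1.42 ± 0.31, adjusted p = 0.0365) with 209, 174 and 238 T>C reads against 116, 118 and 27.0. ELOC, elongin C of the VHL ligase, was lower (-0.66 ± 0.16, adjusted p = 0.0504) with 120, 130 and 191 against 185, 219 and 299. MVD, HSPD1, ADM and UBE2M were not called after correction for GC content, described below. Neither UBE2M nor ELOC was called in total reads, where the list's median was 0.026.

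INPP5F, NBL1 and ISLR2 were in no list and were chosen after their values were seen. INPP5F, a phosphoinositide phosphatase, had 727, 870 and 1076 normalized total reads in S9CC13, 384, 408 and 374 in S9CC47_R6, and 361, 384 and 308 in S9CC47_R5 (1.18 ± 0.13, adjusted p = 0.00971). NBL1, a secreted BMP antagonist, had 2650, 2998 and 2361 against 1612, 1280 and 1139 (1.00 ± 0.11, adjusted p = 0.00971). In both S9CC13 was above all 6. ISLR2, a neuronal membrane protein, had 479, 712 and 344 against 281, 353 and 127 (1.06 ± 0.15, adjusted p = 0.0306), and S9CC13 overlapped S9CC47_R5, at 186, 366 and 138.

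The higher genes lay mostly among those of high GC content. GC content was taken over the last 300 bases of the gene's transcript, where the reads of 3′ end libraries fall. In the quintile of genes with the highest GC (above 51.3%), 67 of the 93 genes higher in total reads were found, and the median log2 difference was 0.12, against -0.046 to -0.011 in the other quintiles. Of the 132 genes higher in T>C reads, 92 lay there, with a median of 0.16. In the same quintile S9CC47_R5 was above S9CC47_R6 by 0.11 (total) and 0.13 (T>C). The correlation of a gene's GC content with its deviation in a library in total reads was 0.20, -0.23 and -0.42 at 0h, 3h and 24h in S9CC47_R6 and 0.067, 0.25 and -0.13 in S9CC13 (across 11708 genes, which share these libraries). It was thus lower in S9CC13 than in S9CC47_R6 at 0h and higher at 3h and 24h. The part of GC content in the calls was not tested beyond the correction given next.

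After a loess correction for GC in each library, 248 genes were called for total reads, 132 higher and 116 lower. They held 130 of the 138 genes called without it (94.2%), and 67 of the higher genes were still in the top quintile. In T>C reads 89 were called, 59 higher and 30 lower, with 81 of the 208 among them (38.9%), and 24 of the higher genes were in the top quintile. IRAK1, RPL28, GPX4, SGTA and ANKRD1 were called after the correction in T>C reads, while the T>C calls of CTSF, NCSTN, EPHA2, SNAI1, THOC3, MVD, UBE2M, ADM and HSPD1 were lost with it.

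**Figure D3:**
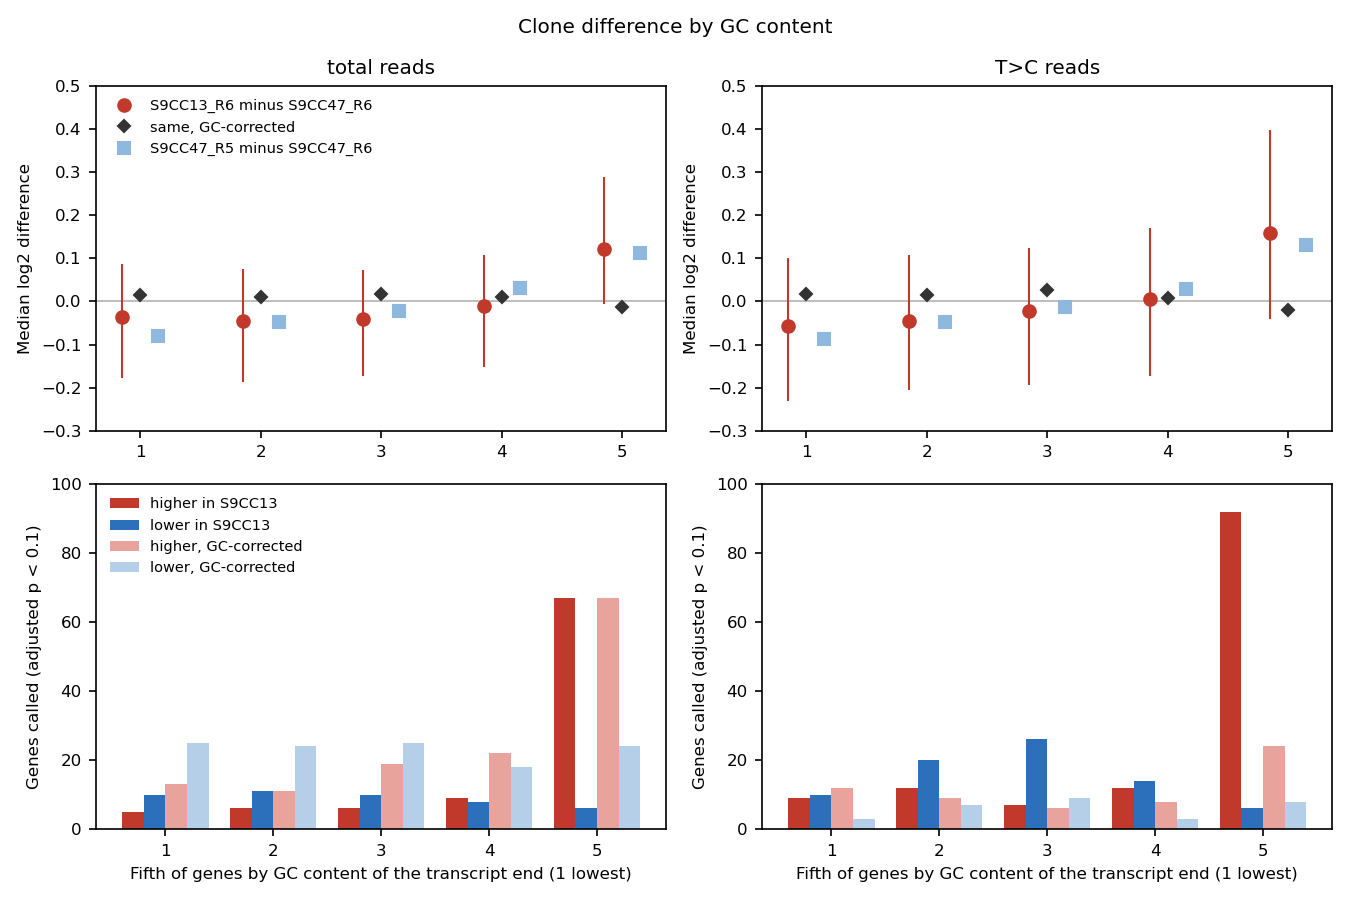
Log2 difference between S9CC13 and S9CC47_R6 by quintile of GC content, for total and for T>C reads (upper panels), with points at the median over genes, lines over the interquartile range of genes and squares for S9CC47_R5 minus S9CC47_R6, and the number of genes called higher and lower before and after GC correction (lower panels, bars). The top quintile lies at 0.12 for total and 0.16 for T>C reads before the correction and at -0.012 and -0.020 after it.

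Chromosome medians lay close together. Median log2 differences of total reads ran from -0.042 on chromosome 18 to 0.072 on chromosome 22, a range of 0.114, and after the GC correction the range was 0.081. In T>C reads the range was 0.122, from chromosome 18 to chromosome 19, and 0.088 after the correction. The run of 50 neighbouring tested genes with the highest median was chr16:566995-2210905, at 0.33 for total reads with 6 genes higher and none lower, and 0.14 after the correction. The same run stood at 0.50 and 0.19 in T>C reads. The lowest run, chr1:160343294-169460669, stood at -0.17.

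**Figure D4:**
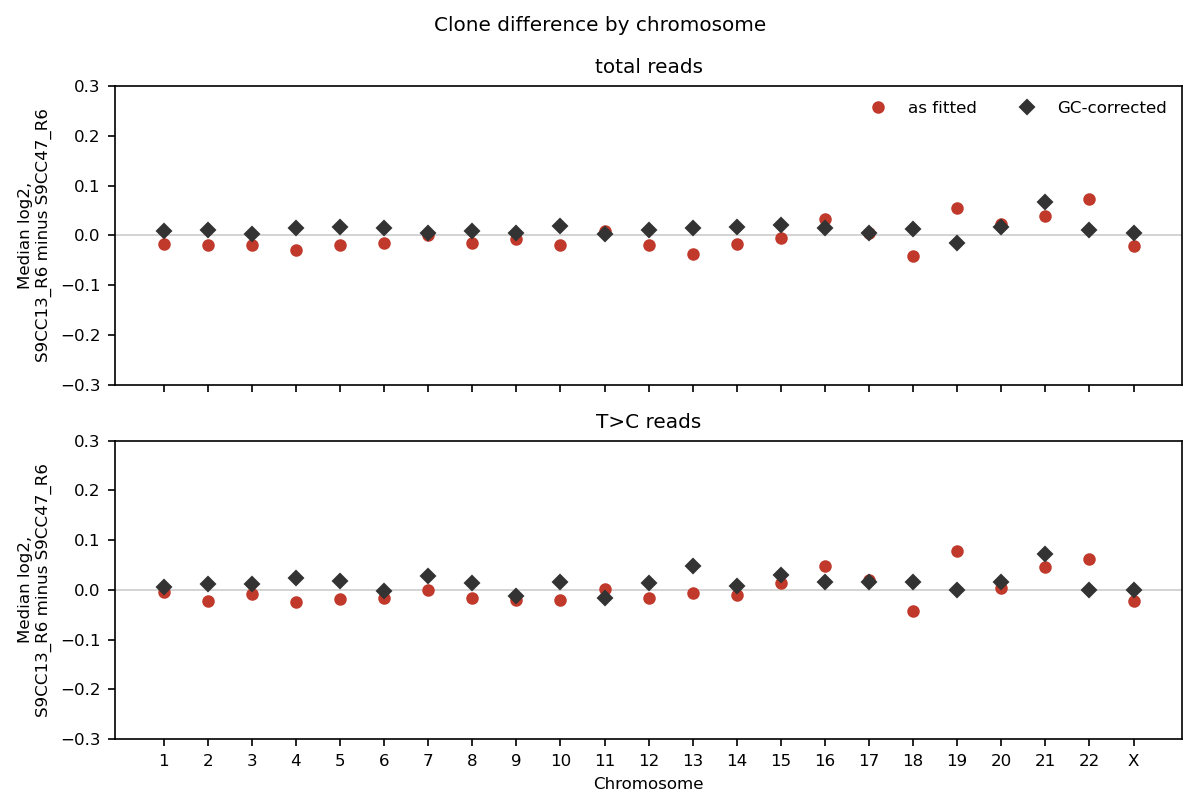
Median log2 difference between S9CC13 and S9CC47_R6 for each chromosome, for total and T>C reads, before and after the GC correction. All medians for total reads lie between -0.042 and 0.072.

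The share of reads with T>C changes, in each library over all genes, was compared by time. In S9CC13 it was 18.5%, 15.9% and 19.8% at 0h, 3h and 24h, against 18.8%, 19.5% and 21.3% in S9CC47_R6 and 20.1%, 18.1% and 20.4% in S9CC47_R5. Counting error was small: the 95% Wilson interval of the 3h library of S9CC13 was 15.90% to 15.93%. The share was 18.1% ± 1.98 (SD, n = 3) in S9CC13 and 19.9% ± 1.29 (SD, n = 3) in S9CC47_R6. It was lower at 3 of 3 times, by 1.79 percentage points on average (exact two-sided sign-flip permutation p = 0.25, the smallest that 3 pairs allow, so the test could not pass 0.05).

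The other question was whether the clones answered dTAGV-1 differently. A fit over all 9 libraries with time, culture and the product of S9CC13 with each time called no gene at 3h or 24h (0% of 12037 genes in T>C reads and 0% of 11710 in total reads, edgeR's quasi-likelihood test). At an unadjusted p under 0.05 there were 431 and 298 genes in T>C reads and 226 and 149 in total reads at 3h and 24h, and DESeq2 also called 0. The spread of S9CC13 itself is not measured in this fit, since its single culture is assumed to vary as the pair of S9CC47 cultures did. The median SE of a response difference in T>C reads was 0.43 for the 3h response and 0.42 for the 24h response (log2 units), against 0.19 for SOX9, one of the most read genes.

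For SOX9 and its known targets the response differences were within 2 SE. T>C reads of SOX9 were 9539, 18634 and 23761 at the 3 times in S9CC13 and 9964, 17215 and 21218 in S9CC47_R6, so SOX9 RNA was higher at the later times in both clones. The log2 change at 24h was 1.32 in S9CC13, 1.09 in S9CC47_R6 and 1.00 in S9CC47_R5, and the difference of S9CC13 from S9CC47 was 0.27 ± 0.19 (SE). COL2A1 had 810, 648 and 442 T>C reads in S9CC13 and 769, 632 and 358 in S9CC47_R6. It changed by -0.87, -1.10 and -1.38 in the 3 cultures at 24h (difference 0.36 ± 0.27), and COL11A1 by -0.45, -0.50 and -0.61 (0.10 ± 0.27).

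SOX5 had 298, 145 and 108 T>C reads in S9CC13 against 256, 153 and 119 in S9CC47_R6, and its change at 24h was -1.46, -1.10 and -1.14 (difference -0.34 ± 0.37). TENT5B, a poly(A) polymerase, had 226, 68.3 and 40.2 against 241, 33.0 and 34.6. Its change at 3h was -1.71 in S9CC13, -2.83 in S9CC47_R6 and -1.42 in S9CC47_R5 (difference 0.33 ± 0.52), and at 24h -2.46, -2.77 and -2.43 (0.16 ± 0.54). Of the lists, the 12 tested cartilage genes had a median response difference of 0.31 at 24h and 0.061 at 3h in T>C reads. None was called, and the medians over all genes were 0.0075 and -0.0099. In total reads the cartilage median at 24h was -0.0039, over 11 genes. Other lists at 24h in T>C reads went both ways, with 0.32 for matrix proteases and inhibitors, 0.42 for glial and melanocyte genes and -0.15 for p53 targets.

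Genes chosen by their response in S9CC47_R5, a culture that took no part in the R6 comparison, gave a side-by-side view of both clones. At 24h, 81 genes were higher by at least 1 on the log2 scale (CPM plus 1) in S9CC47_R5 and 80 were lower, among 8725 genes with at least 50 T>C reads at 0h or 24h in that culture. The median change of the 81 was 0.58 in S9CC13 and 0.62 in S9CC47_R6, with the same sign in 62 and 64 genes. That of the 80 was -0.74 and -0.72, with 67 and 67. Across these 161 genes the changes in the clones had a Pearson r of 0.88, which describes genes of shared libraries and not replicates.

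At 3h the values of the clones depended on the pseudocount. The 65 genes higher in S9CC47_R5 changed by a median of 0.47 in S9CC13 and 0.16 in S9CC47_R6, with the same sign in 51 and 38, and the 55 lower genes by -0.72 and 0.045, with the same sign in 48 and 27. The r across the 120 genes was 0.48. After the GC correction the medians of the higher genes were 0.48 and 0.40 and those of the lower genes -0.67 and -0.38, and r was 0.61. With a pseudocount of 5 in place of 1, 24 lower genes changed by -0.92 and -0.76, with the same sign in 23 and 20, 24 higher genes by 0.63 and 0.26, and r was 0.79 over 48 genes. The 3h library of S9CC47_R6 and that of S9CC47_R5 lay on opposite sides in GC (correlations of -0.16 and 0.25 in T>C reads). That of S9CC13 lay on the side of S9CC47_R5, in which the genes were chosen (0.23). Whether that bears on these values was not tested. Medians over all genes were -0.026 and 0.020.

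**Figure D5:**
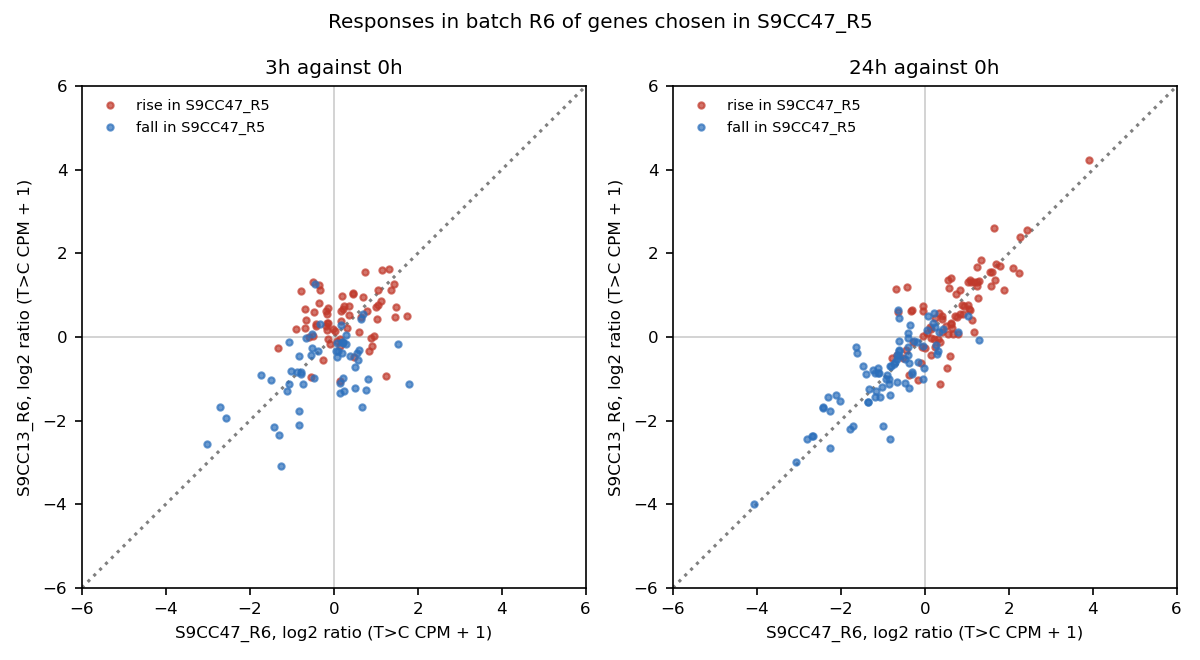
Log2 change in T>C reads (CPM plus 1) in S9CC13_R6 against that in S9CC47_R6, at 3h and at 24h, with 1 point per gene chosen as higher or lower in S9CC47_R5 and a dotted line where both clones change alike. At 24h the points follow one line (r = 0.88 over 161 genes), and at 3h they scatter more (r = 0.48 over 120 genes).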

How the data were processed

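SLAM-seq gene counts of 9 CNCC samples were used, 6 of them in the clone comparison. The authors trimmed reads, processed them with slamdunk, with mapping set to allow many alignments per read, and deposited raw counts per gene of total reads and of reads with T>C changes, on hg38 per the labels. The counting regions, and how reads with several alignments entered the counts, are not given in the sources used here. All 9 columns of each table were used. Symbols were matched to GENCODE 44 or RefSeq (118 of 18970 unmatched). Samples were grouped by clone, batch and time from their titles. Nothing in the labels says that the times came from separate cultures.

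Protein-coding genes that reached 1 CPM in 3 or more fitted samples were tested with edgeR 4.0.16 (TMM, quasi-likelihood, R 4.3.3) on counts, with time and clone over the 6 samples, and with time, culture and the products of S9CC13 with time over all 9. Calls were made at a Benjamini-Hochberg adjusted p under 0.1. The standard error is the log2 fold change over the root of its F value. Intervals are at 95% and cover counting error only, since reads had no molecular identifiers. The floor was 3 reads per library. Alternatives were DESeq2 1.42.0, a surrogate variable (sva 3.50.0), other filters, scalings and blocks, GC correction and leaving out each pair.

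Named genes were the 10 with the largest fold in each direction for total reads and 5 for T>C reads, taken from called genes that averaged 50 or more normalized reads and had 1 direction at all 3 times, plus up to 4 called genes of each of the 32 lists or, with none called, the most read ones. Members, lists and genes were chosen with earlier results of these data known. The tests were run on simulated data first.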

Additional observations from a re-analysis of the deposited data

How the results depend on the processing

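Of the alternative values for named genes, 554 of total reads and 581 of T>C reads kept their direction and side of the threshold, 103 and 135 lost the call, 42 and 22 gained one and 12 and 8 turned direction. Of those that turned, ID2 in T>C reads had been called (-0.023 over all 9 samples with clone but no culture term). The others were uncalled in both settings. In total reads these were COL2A1 (-0.0013 without the replicate block, -0.036 to 0.075 leaving out one pair, with -0.024 without the 24h pair), TENT5B (-0.073 without the block, -0.25 with a surrogate variable, -0.13 to 0.29 leaving out one pair, -0.025 after GC correction, -0.023 without a culture term), MVD (-0.13 with a surrogate variable) and SOX9 (-0.069 to 0.032 leaving out one pair, 0.025 after GC correction, 0.043 without a culture term). Among T>C values they were TENT5B (-0.11 with a surrogate variable), SOX5 (-0.10 to 0.084) and COL11A1 (-0.0034 to 0.28) leaving out one pair, SOX9, COL2A1 and SOX5 (-0.085, -0.018 and -0.14 when scaled by total reads) and SNTG1 (0.0075 without a culture term). For total reads, against 138 called genes, DESeq2 called 331, the fit without time as a replicate block 10, a filter of at least 1 count 609, the 9-sample fit with a surrogate variable 79, GC correction 248, the 9-sample fit with no culture term 27 and a threshold of 0.05 54. Leaving out one pair gave 84 to 1730. For T>C reads, against 208, these were 91, 12, 508, 53, 89, 66 and 115, with 76 to 1084 without one pair. Scaling T>C reads by the total-read factors called 266, 71 higher and 195 lower against 132 and 76, with the median of all genes moved to -0.16. For unconverted reads (175 called) DESeq2 gave 268 and the fit without the replicate block 12. The difference of S9CC47_R5 from S9CC47_R6 in total reads called 33 genes and 75 after GC correction. The cause was not tested in any of these.

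Time is the pairing by the labels. Deviations of samples of the same time correlated by 0.33, 0.09 and 0.69 at 0h, 3h and 24h in total reads. No response difference was called except with a filter of at least 1 count, which called 2 genes at 24h in T>C reads, RPL30 (1.49, adjusted p = 5.71e-09) and GAPDH (1.01, adjusted p = 0.00351), by edgeR. At 0h and 24h RPL30 had 3768 and 15082 T>C reads in S9CC13, 7071 and 17683 in S9CC47_R6, and 7433 and 6994 in S9CC47_R5. Its counts thus rose in S9CC13 and S9CC47_R6 but not in S9CC47_R5, so the S9CC47 cultures did not answer alike. GAPDH had 7397 and 11659, 13114 and 11028, and 9020 and 6631 in the same order. Leaving out a culture leaves the response fit no residual degrees of freedom. With genes chosen at a log2 change of 2 in S9CC47_R5, medians in S9CC13 and S9CC47_R6 were -2.55 and -1.30 for 3 lower genes at 3h (against -0.72 and 0.045 as reported), 3.41 and 2.78 for 2 higher genes at 24h and -2.36 and -2.25 for 11 lower genes at 24h. No gene was higher by that much at 3h. The S9CC47_R6 median of the lower genes at 3h also turned sign with GC correction (-0.38) and a pseudocount of 5 (-0.76). The highest window median over 100 genes was 0.22 (T>C) and 0.15 (total), and over 50 genes after GC correction 0.19 and 0.14. The difference in T>C share lay between -2.55 and -0.88 percentage points without one pair. RLE factors, genes of all biotypes, a mean of at least 20 counts and the 9-sample fit with culture kept the counts of both measures within 1.5 times. Depth limits genes with few T>C reads most.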
